A study of Mus musculus with 8 samples.

Results

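Chemokines are small secreted or membrane-bound proteins that steer leukocytes, and they act through receptors of the G protein-coupled kind. This account covers 32 of these genes, 27 ligands and 5 receptors, in mouse sciatic nerve. They were chosen by name as CC, CXC and CX3C chemokines and receptors. The array has a probe set mapped to that gene alone for 31 of the 32. Ccl19 is matched only by a probe set shared with other genes and has no value here. Above background was taken as lying above the median of the array on at least 2 arrays, since the values come without detection calls. By that measure 22 of the 32 genes (19 ligands and 3 receptors) were above background, out of 12094 genes in all. The 9 genes below it were Ccl3, Ccl17, Ccl20, Ccl22, Ccl25, Cxcl2, Cxcl5, Ccr7 and Cxcr6. Ccl4 and Ccl12 passed only through arrays of cut nerve (1 KO cut and 2 CTRL cut arrays each), so the filter itself favours a difference with injury for these genes. Ccr1 was above the median on 2 KO cut, 2 CTRL cut and 1 CTRL uncut array, so it too needed cut arrays to pass.

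The study compared nerves of c-Jun mutant mice (KO) with nerves of control mice (CTRL, wild type in the labels) after transection, and its question was the role of c-Jun, a subunit of the transcription factor AP-1, in Schwann cells after injury. The 4 groups, of 2 arrays each, were KO cut, CTRL cut, KO uncut and CTRL uncut. The sciatic nerve of adult mice was transected at the notch, and at 7 days a 10 mm piece of the distal stump (cut) and the unoperated nerve of the opposite side (uncut) were taken. An array held a pool of RNA, from 4 or 6 mice. The labels give neither strain, age in weeks nor the allele. In the published study, c-Jun was floxed and removed by a Cre under a myelin gene promoter active in Schwann cells, so other cells of the nerve keep the gene. The labels call the tissue Schwann cells, but the material is a whole segment that also holds macrophages, fibroblasts, vessels and other cells. In such a mixture, fewer cells of a type and less RNA per cell cannot be told apart.

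Chemokines of the CC family mainly draw monocytes, macrophages, eosinophils and lymphocytes, and those of the CXC family neutrophils or lymphocytes. After transection, axons and myelin of the distal stump break down, and Schwann cells, fibroblasts and resident macrophages release chemokines. Ccl2, which attracts monocytes through the receptor Ccr2, is the best known of these in nerve.

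Jun, the targeted gene, had log2 values of 10.39 and 10.80 in KO cut and 11.88 and 11.96 in CTRL cut, against 9.62 and 9.59 in KO uncut and 9.58 and 9.70 in CTRL uncut. It was lower in KO cut than in CTRL cut by a log2 difference of -1.33 (SE 0.14, adjusted p = 0.00866), and it remained measurable there. Array medians lay between 6.59 and 6.65. Replicates correlated at 0.984 to 0.989 across probe sets, and cut with uncut arrays at 0.854 to 0.894. Of the 10 Schwann cell markers, 7 were above background, at mean levels per array of 10.77 to 11.44. Of the macrophage markers, 15 of 17 were higher after injury in KO and 16 of 17 in CTRL, with none called between genotypes. Their mean level per array was 11.02 to 11.31 in KO cut and 11.19 to 11.31 in CTRL cut, against 9.27 to 9.63 in KO uncut and 9.33 to 9.51 in CTRL uncut. Milk protein genes, which are not known as nerve genes, stood out on some arrays: Csn2 was at 3.69 and 9.15 in KO cut, 11.47 and 7.03 in CTRL cut, 13.01 and 10.33 in KO uncut, and 3.50 and 4.14 in CTRL uncut. Results are therefore also given without the cut array of each genotype with more of this signal (KO cut replicate 2 and CTRL cut replicate 1, called the milk-richer cut arrays below). The CTRL cut array that stays still has more Csn2 than the CTRL uncut arrays. The epithelial keratins Krt8 and Krt18 rose in CTRL by log2 fold changes of 3.63 (adjusted p = 5.7e-05) and 4.91 (adjusted p = 3.4e-05), and Krt18 rose in KO by 1.61 (adjusted p = 0.00753). They were picked from 8 glandular epithelium markers above background, a list that also holds the milk protein genes. The other 6 were not called in CTRL. In KO, Krt5 fell (-0.53, adjusted p = 0.0320) and 6 were not called. The keratins and the milk protein genes did not move together in KO. Krt18 had a mean of 10.66 in KO cut and 9.05 in KO uncut, while Csn2 had 6.42 and 11.67. The part of either signal in the injury changes was not tested. Both KO uncut arrays carry the milk protein signal, so uncut nerve allows no comparison without it.

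The promoters of 4 of the genes that rose after injury are shown first: Ccl8 and Cxcr4, with the 2 largest changes among the 22, Ccl12, which lies beside Ccl8 on chromosome 11, and Cxcl10. Each line is the 250 bases before the annotated start in RefSeq (GRCm38.p6), read 5′ to 3′ on the strand of the gene. Capitals mark matches, on either strand, to the AP-1 motif TGACTCA, which c-Jun dimers bind or to the TATA box TATAAA. The Cxcl10 window is chr5:92348890-92349139 on the minus strand, that of Ccl8 chr11:82114935-82115184 on the plus strand, that of Ccl12 chr11:82101595-82101844 on the plus strand, and that of Cxcr4 chr1:128592300-128592549 on the minus strand.
Cxcl10: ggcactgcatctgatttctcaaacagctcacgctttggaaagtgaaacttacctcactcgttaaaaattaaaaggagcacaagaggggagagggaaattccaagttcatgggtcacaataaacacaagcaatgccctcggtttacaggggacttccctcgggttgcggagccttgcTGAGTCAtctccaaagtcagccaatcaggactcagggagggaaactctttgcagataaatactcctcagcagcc
Ccl8: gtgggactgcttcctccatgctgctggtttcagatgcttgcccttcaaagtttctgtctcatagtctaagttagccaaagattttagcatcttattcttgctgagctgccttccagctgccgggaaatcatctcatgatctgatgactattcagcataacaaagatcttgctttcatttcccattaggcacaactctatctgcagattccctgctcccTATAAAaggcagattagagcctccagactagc
Ccl12: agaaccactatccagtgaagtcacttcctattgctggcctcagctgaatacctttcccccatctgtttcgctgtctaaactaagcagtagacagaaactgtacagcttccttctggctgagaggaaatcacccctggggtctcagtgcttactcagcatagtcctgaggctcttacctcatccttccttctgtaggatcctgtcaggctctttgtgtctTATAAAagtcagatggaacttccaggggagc
Cxcr4: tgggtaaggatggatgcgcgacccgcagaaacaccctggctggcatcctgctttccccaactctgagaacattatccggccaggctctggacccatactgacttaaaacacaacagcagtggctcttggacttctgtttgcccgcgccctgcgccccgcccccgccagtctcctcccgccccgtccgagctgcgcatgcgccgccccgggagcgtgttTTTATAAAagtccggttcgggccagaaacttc

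The RefSeq table has promoters for 22 of the 32 genes, not the same 22 as those above background. Ccl2, Ccl4, Ccl5, Ccl7, Ccl11, Ccl24, Cxcl5, Cxcl11, Cxcl16 and Ccr7 had no promoter there and were not searched. Cxcl10 was the only 1 of the 22 genes searched to hold an AP-1 match, TGAGTCA, starting 74 bases before its start. Over all 27025 promoters of that length, counting 1 window per gene, the AP-1 motif is in 4.47% and the TATA box in 12.9%. Among these 22 promoters the TATA box is in 7, which are Ccl8, Ccl9, Ccl12, Cxcl9, Cxcl13, Cx3cl1 and Cxcr4. A further window of Ccl25, not counted here, holds a TATA box 16 bases before its start. In Ccl8 and Ccl12 the TATA box starts 32 and 31 bases before the start. The motif letters overlap in Cxcr4, where TTTATA and TATAAA share bases. A match here describes the letters of the window only.

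After injury, 10 of the 22 genes were higher in KO nerve (Ccl2, Ccl7, Ccl8, Ccl9, Ccl12, Cxcl10, Cxcl14, Cxcl16, Ccr1 and Cxcr4), 2 were lower (Ccl24 and Cxcl11), and 10 were not called. In CTRL nerve 14 were higher (the same 10 with Ccl4, Ccl6, Cxcl9 and Cx3cl1), 1 was lower (Cxcl11), and 7 were not called. A gene was called at limma's adjusted p under 0.05 over all 12094 genes. Over all genes, 36.0% were called in KO (18.1% higher and 17.8% lower) and 40.3% in CTRL (22.8% higher and 17.5% lower). The median log2 fold change over the 22 genes was 0.43 in KO and 0.64 in CTRL, beside -0.00 and 0.05 over all genes. Calls in both genotypes numbered 11, each with the same sign. The share of all genes called in both is not given here, so this count has no background beside it. KO and CTRL nerves share no arrays in these comparisons. Without those 2 milk-richer cut arrays, 10 of 21 genes were called in KO (9 of them higher) and 12 of 21 in CTRL (11 of them higher), beside 23.1% of all genes in KO (12.3% higher) and 30.9% in CTRL (15.5% higher). The calls lost were Ccr1 (adjusted p = 0.0722) and Cxcl11 (adjusted p = 0.0976) in KO, and Cxcl9 (adjusted p = 0.283) and Cx3cl1 (adjusted p = 0.0518) in CTRL, and Ccl4 no longer passed the filter.

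**Figure D1:**
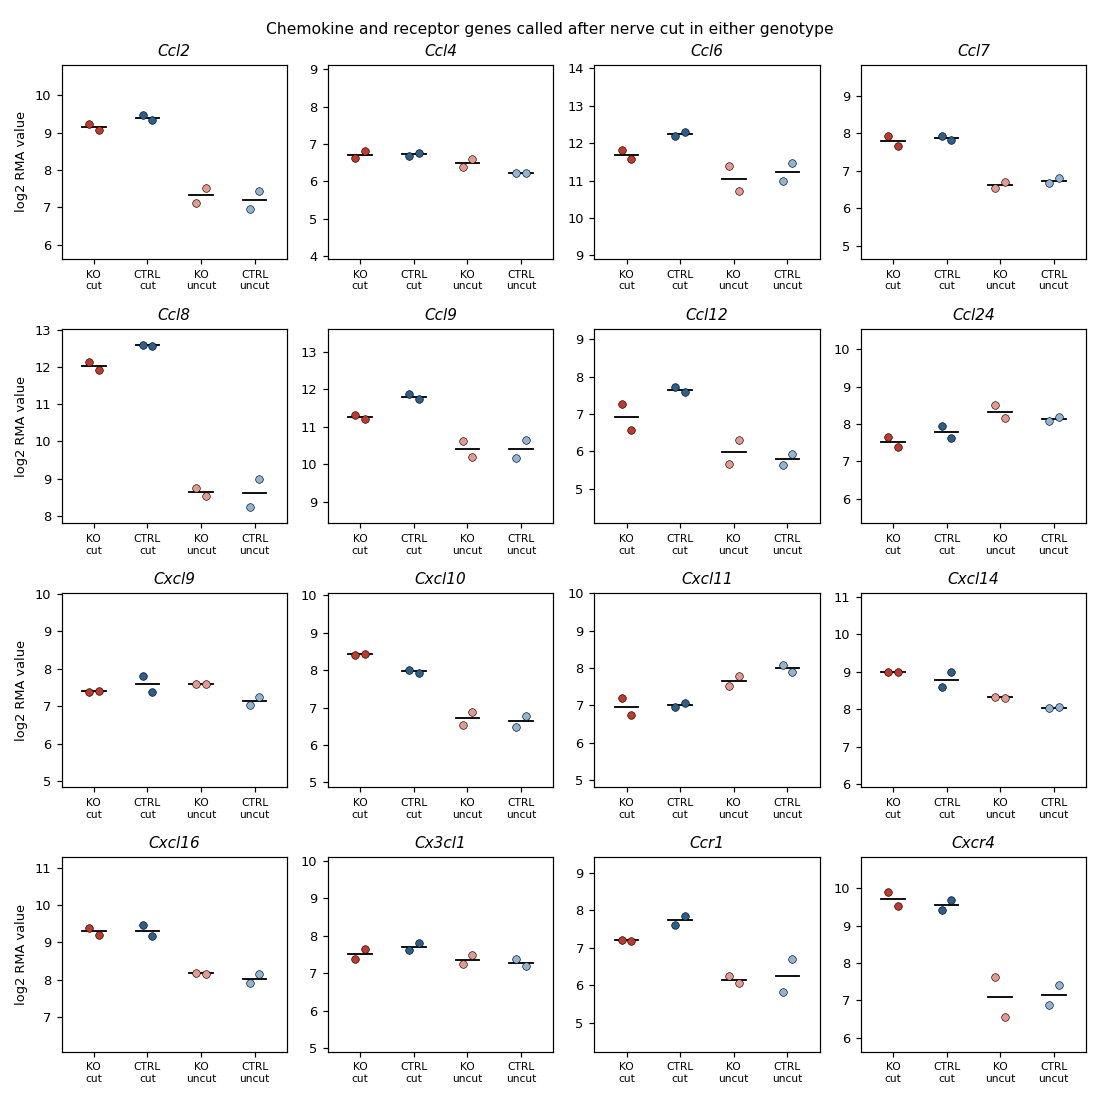
Log2 expression on each array (dots, 1 per array; lines mark group means) of the 16 chemokine and receptor genes called after injury in either genotype, with KO cut, CTRL cut, KO uncut and CTRL uncut from left to right. Ccl8 shows the widest gap, with cut arrays at 11.92 or higher and uncut arrays at 9.0 or lower.

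Of the 10 CC ligands above background (of 15 with a value), 5 rose and 1 fell in KO, and 7 rose in CTRL. Ccl8, a monocyte chemoattractant protein that in mouse is a ligand of Ccr8, changed the most. It stood at 12.13 and 11.92 in KO cut against 8.74 and 8.54 in KO uncut, and at 12.59 and 12.57 in CTRL cut against 8.23 and 9.0 in CTRL uncut. Cut and uncut arrays lie far apart, and both KO cut arrays are below both CTRL cut arrays. The log2 fold change was 3.38 in KO (SE 0.23, adjusted p = 4.3e-05) and 3.96 in CTRL (SE 0.23, adjusted p = 1.9e-05), or 15.6-fold in CTRL.

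Ccl2 had values of 9.23 and 9.06 in KO cut against 7.11 and 7.53 in KO uncut. In CTRL it had 9.46 and 9.32 in cut nerve against 6.96 and 7.45 in uncut nerve. All cut arrays exceed all uncut arrays, by 3.54-fold in KO (log2 1.82, SE 0.19, adjusted p = 3.6e-04) and 4.56-fold in CTRL (log2 2.19, SE 0.19, adjusted p = 1.3e-04). Ccl7, another ligand of Ccr2, was at 7.93 and 7.66 in KO cut against 6.53 and 6.70 in KO uncut, and at 7.94 and 7.83 in CTRL cut against 6.67 and 6.80 in CTRL uncut. Its rise was nearly the same in size in both, with log2 fold changes of 1.18 in KO (adjusted p = 4.0e-04) and 1.15 in CTRL (adjusted p = 3.8e-04).

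Ccl12 is a mouse ligand of Ccr2. It was at 7.27 and 6.58 in KO cut against 5.67 and 6.29 in KO uncut. In CTRL it was at 7.71 and 7.59 in cut nerve against 5.64 and 5.94 in uncut nerve. The KO cut arrays lie between the uncut arrays and the CTRL cut arrays, and differ from each other by more than the CTRL cut pair does. Its log2 fold change was 0.94 in KO (SE 0.27, adjusted p = 0.0281) and 1.86 in CTRL (SE 0.27, adjusted p = 0.00131). The KO call was lost without KO cut replicate 1 (adjusted p = 0.133) or KO uncut replicate 1 (adjusted p = 0.143), and with only the arrays compared (adjusted p = 0.0646).

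Ccl6 and Ccl9, mouse ligands of Ccr1 made largely by myeloid cells, were bright in every group. Ccl9 was at 11.33 and 11.21 in KO cut against 10.61 and 10.18 in KO uncut, and at 11.87 and 11.75 in CTRL cut against 10.17 and 10.66 in CTRL uncut. It rose by a log2 fold change of 0.88 in KO (SE 0.19, adjusted p = 0.0101) and 1.39 in CTRL (SE 0.19, adjusted p = 0.00108). The KO call was lost without KO uncut replicate 2 (adjusted p = 0.0598). Ccl6 was at 11.81 and 11.57 in KO cut against 11.38 and 10.71 in KO uncut, and at 12.20 and 12.29 in CTRL cut against 10.99 and 11.46 in CTRL uncut. Its groups do not overlap in either genotype, but only CTRL passed the test, at 2.03-fold (log2 1.02, adjusted p = 0.0110), with KO at a log2 fold change of 0.64 (adjusted p = 0.0680). Without KO uncut replicate 1 the KO value was 0.98 and was called (adjusted p = 0.0168). The CTRL call was lost without CTRL cut replicate 2 (adjusted p = 0.0542) or CTRL uncut replicate 1 (adjusted p = 0.0699).

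Ccl4 and Ccl5 are inflammatory chemokines that attract macrophages and T cells. Ccl4 was close to the array median, at 6.62 and 6.81 in KO cut against 6.40 and 6.61 in KO uncut, and at 6.69 and 6.76 in CTRL cut against 6.23 and 6.24 in CTRL uncut. It rose in CTRL (log2 fold change 0.49, adjusted p = 0.0115) and did not pass in KO (0.21, adjusted p = 0.185). That call was lost without CTRL cut replicate 2 (adjusted p = 0.0586), CTRL uncut replicate 1 (adjusted p = 0.0544) or CTRL uncut replicate 2 (adjusted p = 0.0538). Ccl5 had 7.73 and 7.48 in KO cut against 7.72 and 7.58 in KO uncut, and 7.47 and 7.74 in CTRL cut against 6.77 and 7.40 in CTRL uncut. It passed in neither genotype, with log2 fold changes of -0.05 in KO (adjusted p = 0.886) and 0.52 in CTRL (adjusted p = 0.0823). Without CTRL uncut replicate 2 the CTRL value was 0.84 and was called (adjusted p = 0.0147).

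The eotaxins Ccl11 and Ccl24, which attract eosinophils through Ccr3, did not rise. Ccl24 was at 7.65 and 7.37 in KO cut against 8.52 and 8.15 in KO uncut, and at 7.95 and 7.64 in CTRL cut against 8.08 and 8.18 in CTRL uncut. It fell in KO (log2 fold change -0.82, SE 0.17, adjusted p = 0.00762), while CTRL showed -0.34 (adjusted p = 0.150). Ccl11 lay between 10.68 and 11.25 on all 8 arrays, with log2 fold changes of 0.02 in KO and 0.22 in CTRL (adjusted p = 0.937 and 0.222).

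Of the 8 CXC ligands above background (of 10 with a value), 3 rose and 1 fell in KO, and 4 rose and 1 fell in CTRL. Cxcl9, Cxcl10 and Cxcl11 are interferon-induced ligands of Cxcr3, a receptor of activated T and natural killer cells, and they moved in different ways. Cxcl10 was at 8.41 and 8.44 in KO cut against 6.54 and 6.88 in KO uncut, and at 8.00 and 7.93 in CTRL cut against 6.49 and 6.78 in CTRL uncut. Its KO cut arrays are above its CTRL cut arrays, the reverse of the order seen for Ccl8. The log2 fold change was 1.71 in KO (SE 0.14, adjusted p = 1.2e-04) and 1.33 in CTRL (SE 0.14, adjusted p = 3.5e-04).

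Cxcl9 had 7.38 and 7.42 in KO cut against 7.59 and 7.59 in KO uncut, and 7.81 and 7.37 in CTRL cut against 7.04 and 7.24 in CTRL uncut. Both KO cut arrays are below both KO uncut arrays, and both CTRL cut arrays are above both CTRL uncut arrays. The milk protein gene Csn2 had the same order, and the part of that signal here was not tested. A second Cxcl9 probe set, below the array median on all 8 arrays, did not have this order. Its cut minus uncut differences were 0.12 in KO and 0.19 in CTRL, and no size is read from them. The rise of Cxcl9 in CTRL with the brighter probe set was just past the threshold (log2 fold change 0.45, adjusted p = 0.0487), and KO showed -0.19 (adjusted p = 0.373). With any 1 of 7 arrays left out (all but CTRL cut replicate 2) the CTRL call was lost, with adjusted p up to 0.236. It was also lost with no filter (adjusted p = 0.0573), with probe sets as units (adjusted p = 0.0588) and with only the arrays compared (adjusted p = 0.0891). Cxcl11, which RefSeq lists as a transcribed pseudogene in the mouse reference strain, had 7.19 and 6.73 in KO cut against 7.53 and 7.79 in KO uncut. In CTRL it had 6.97 and 7.08 in cut nerve against 8.08 and 7.90 in uncut nerve. It fell in both, by log2 fold changes of -0.70 in KO (SE 0.17, adjusted p = 0.0154) and -0.97 in CTRL (SE 0.17, adjusted p = 0.00328). The KO call was lost without KO cut replicate 2 (adjusted p = 0.0806) or KO uncut replicate 2 (adjusted p = 0.0908).

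Cxcl16, made as a transmembrane protein and the ligand of Cxcr6, was at 9.39 and 9.19 in KO cut against 8.17 and 8.16 in KO uncut, and at 9.46 and 9.16 in CTRL cut against 7.90 and 8.14 in CTRL uncut. It rose 2.18-fold in KO (log2 1.12, adjusted p = 8.0e-04) and by a log2 fold change of 1.29 in CTRL (adjusted p = 3.5e-04). A second probe set of Cxcl16 moved further, with 2.07 in KO (adjusted p = 9.6e-05) and 2.27 in CTRL (adjusted p = 5.0e-05). For second probe sets the adjustment runs over all 24220 kept probe sets. Cxcl14, made by epithelia and fibroblasts, was at 8.99 and 8.99 in KO cut against 8.33 and 8.30 in KO uncut, and at 8.59 and 9.0 in CTRL cut against 8.02 and 8.06 in CTRL uncut. It rose by log2 fold changes of 0.67 in KO (adjusted p = 0.00730) and 0.75 in CTRL (adjusted p = 0.00380). Its second probe set gave 1.43 in KO (adjusted p = 5.4e-04) and 1.62 in CTRL (adjusted p = 2.4e-04).

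**Figure D2:**
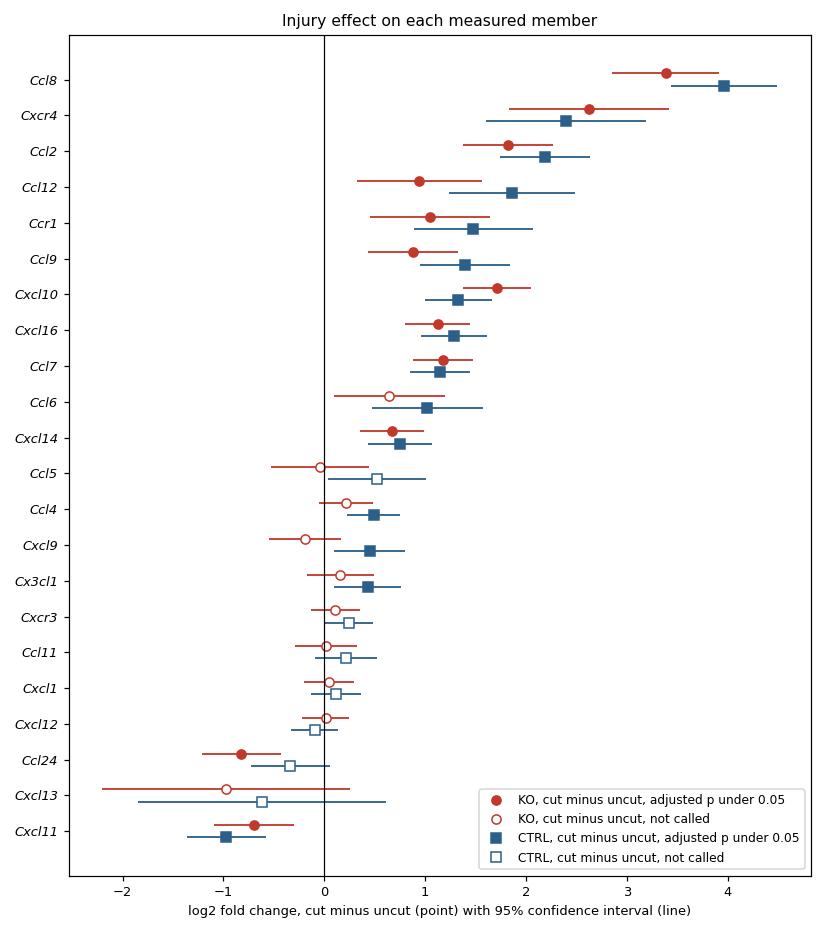
Log2 fold change after injury (cut minus uncut) of the 22 genes, KO as red circles above CTRL as blue squares, with 95% confidence intervals; filled marks passed limma's adjusted p under 0.05. Ccl8 is farthest to the right at 3.38 in KO and 3.96 in CTRL, and Cxcl13 has the widest intervals.

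Cxcl12 signals through Cxcr4 and is made by fibroblasts and vessel cells, and its probe sets gave different answers. The brightest one was at 11.20 and 11.21 in KO cut against 11.12 and 11.25 in KO uncut, and at 11.03 and 10.88 in CTRL cut against 11.08 and 11.01 in CTRL uncut. That probe set showed no called change, with log2 fold changes of 0.02 in KO (adjusted p = 0.915) and -0.09 in CTRL (adjusted p = 0.491). A second probe set was at 9.46 and 9.54 in KO cut against 10.39 and 10.64 in KO uncut, and at 9.42 and 9.34 in CTRL cut against 10.22 and 10.13 in CTRL uncut. There, cut and uncut arrays do not overlap, and the log2 fold change was -1.02 in KO (adjusted p = 7.6e-04) and -0.79 in CTRL (adjusted p = 0.00196). The third gave -0.27 in KO (adjusted p = 0.0894) and -0.06 in CTRL (adjusted p = 0.714). The mean of the 3 probe sets gave calls that the brightest did not, at -0.42 in KO (adjusted p = 0.0104) and -0.31 in CTRL (adjusted p = 0.0302), in KO with the opposite sign. Which part of the transcript each probe set reads was not analysed here.

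Cxcl1, a neutrophil attractant acting through Cxcr2, also depended on the probe set. The brightest, of a design that can bind related transcripts, stayed between 8.36 and 8.67 on all arrays, with log2 fold changes of 0.04 in KO (adjusted p = 0.773) and 0.11 in CTRL (adjusted p = 0.423). The next probe set had log2 fold changes of 0.40 in KO (adjusted p = 0.0483) and 0.41 in CTRL (adjusted p = 0.0402). The third passed the filter only through cut arrays, so the filter favours a difference there, and gave 0.42 in KO (adjusted p = 0.134) and 0.64 in CTRL (adjusted p = 0.0302). The mean of the 3 gave 0.39 in CTRL (adjusted p = 0.0178). In all, 8 of the 22 genes had several probe sets above background. Ccl9 rose in both genotypes with its second probe set too, at 1.08 in KO (adjusted p = 0.0150) and 1.45 in CTRL (adjusted p = 0.00371). Ccl6 rose in CTRL with its second probe set (1.27, adjusted p = 0.0111) and not in KO (0.70, adjusted p = 0.103).

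**Figure D3:**
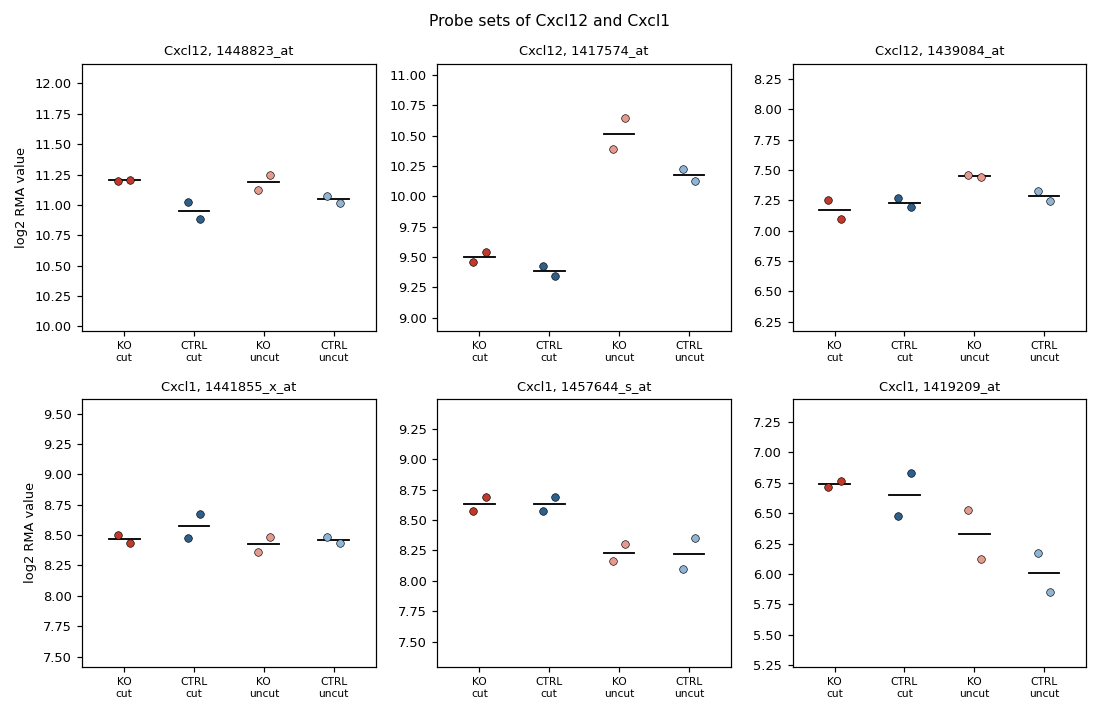
Log2 expression per array (dots; lines mark group means) for the 3 probe sets of Cxcl12 and the 3 of Cxcl1, with KO cut, CTRL cut, KO uncut and CTRL uncut from left to right. For Cxcl12, 1 of the 3 probe sets separates cut from uncut arrays, with log2 fold changes of -1.02 in KO and -0.79 in CTRL.

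Cxcl13, which draws B cells through Cxcr5, had the widest spread between replicates. It was at 8.27 and 6.54 in KO cut against 8.82 and 7.94 in KO uncut, and at 7.67 and 7.57 in CTRL cut against 8.52 and 7.94 in CTRL uncut. No change passed the test, with log2 fold changes of -0.97 in KO (SE 0.53, adjusted p = 0.192) and -0.61 in CTRL (adjusted p = 0.387). Its KO interval runs from -2.20 to 0.26, so a fall of several-fold and no change are both within it. Without KO cut replicate 1 the KO value was -1.84 and was called (adjusted p = 0.0115). Of the 4 B cell markers none was above background.

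Cx3cl1, the membrane-bound ligand of Cx3cr1, was at 7.39 and 7.65 in KO cut against 7.24 and 7.48 in KO uncut, and at 7.61 and 7.81 in CTRL cut against 7.37 and 7.19 in CTRL uncut. It passed in CTRL (log2 fold change 0.43, adjusted p = 0.0443) and not in KO (0.16, adjusted p = 0.422). That call did not hold without CTRL cut replicate 1 (adjusted p = 0.0573), CTRL cut replicate 2 (adjusted p = 0.196), CTRL uncut replicate 1 (adjusted p = 0.0741) or CTRL uncut replicate 2 (adjusted p = 0.200), nor with no filter (adjusted p = 0.0528), with probe sets as units (adjusted p = 0.0546) or with quantiles normalized again (adjusted p = 0.0528). A second probe set of Cx3cl1 gave 0.05 in KO (adjusted p = 0.848) and 0.37 in CTRL (adjusted p = 0.0921).

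Among the receptors, Cxcr4, the Cxcl12 receptor found on leukocytes and many other cells, changed the most. It was at 9.91 and 9.52 in KO cut against 7.62 and 6.56 in KO uncut, and at 9.41 and 9.68 in CTRL cut against 6.87 and 7.42 in CTRL uncut. Every cut array is above every uncut array, while the cut arrays of both genotypes overlap. The rise was 6.16-fold in KO (log2 2.62, SE 0.34, adjusted p = 9.9e-04) and 5.27-fold in CTRL (log2 2.40, SE 0.34, adjusted p = 0.00125).

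Ccr1, the receptor of myeloid cells for Ccl6, Ccl9 and other ligands, was at 7.22 and 7.18 in KO cut against 6.24 and 6.06 in KO uncut, and at 7.62 and 7.84 in CTRL cut against 5.81 and 6.70 in CTRL uncut. It rose 2.07-fold in KO (log2 1.05, SE 0.25, adjusted p = 0.0153) and 2.79-fold in CTRL (log2 1.48, SE 0.25, adjusted p = 0.00306). The KO call was lost without KO cut replicate 1 (adjusted p = 0.0571), KO cut replicate 2 (adjusted p = 0.0584) or KO uncut replicate 2 (adjusted p = 0.0786). A second probe set of Ccr1 was below the 25th percentile on all 8 arrays. Cxcr3 lay between 6.97 and 7.35 on all arrays, with log2 fold changes of 0.11 in KO (adjusted p = 0.440) and 0.24 in CTRL (adjusted p = 0.10).

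Between genotypes, none of the 22 genes passed the test, in cut nerve, in uncut nerve or in the difference between the injury responses. Over all genes, 1.09% were called in cut nerve, 0% in uncut nerve and 0.165% in the difference of responses. At an unadjusted p under 0.05 the counts among the 22 were 7 in cut nerve, 3 in uncut nerve and 2 in the difference of responses, beside 8.61%, 2.66% and 6.04% of all genes. In cut nerve 18 of the 22 had a log2 difference, KO minus CTRL, below 0 (53.6% of all genes did), and the median was -0.15 beside -0.01 over all genes. Without the filter it was 21 of the 31 genes, beside 57.6% of all 18194. The injury response, KO minus CTRL, had a median of -0.27 beside -0.05 over all genes. These genes are measured on the same 8 arrays and are not independent of each other.

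The 10 CC ligands above background had a median difference of -0.30 in cut nerve, and each was below 0, though Ccl4 and Ccl5 only by 0.01 or less. Without the filter, 11 of 15 CC ligands were below 0, with Ccl3 (0.15), Ccl17 (0.09), Ccl22 (0.08) and Ccl25 (0.02) above 0. Ccl12 was farthest, with a log2 difference of -0.73 (interval -1.35 to -0.10, unadjusted p = 0.0276 by limma, adjusted p = 0.463). For the brightest 3, the differences were -0.56 for Ccl6 (interval -1.11 to -0.01, adjusted p = 0.571), -0.55 for Ccl8 (interval -1.08 to -0.02, adjusted p = 0.547) and -0.54 for Ccl9 (interval -0.98 to -0.09, adjusted p = 0.429). Both KO cut arrays were below both CTRL cut arrays for 7 of the 22 genes (Ccl2, Ccl6, Ccl8, Ccl9, Ccl11, Ccl12 and Ccr1), as they were for 20.1% of all genes, and none of the 7 passed the test. For Ccl11 the difference was -0.33 (adjusted p = 0.522) and for Ccl2 -0.25 (interval -0.70 to 0.20, adjusted p = 0.880). Ccr1, which binds Ccl6 and Ccl9, differed by -0.53 (interval -1.13 to 0.06, adjusted p = 0.663).

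Cxcl10 and Cxcl12 differed the other way. Cxcl10 was higher in KO cut by 0.46 (interval 0.12 to 0.79, adjusted p = 0.338), and the brightest Cxcl12 probe set by 0.25 (interval 0.02 to 0.48, adjusted p = 0.528), and neither passed the test. Both KO cut arrays were above both CTRL cut arrays for these 2 of the 22 genes, beside 14.5% of all genes. The other two Cxcl12 probe sets differed by 0.12 and -0.06. Cxcr4 differed by 0.17, with an interval of -0.62 to 0.96 that leaves room for a difference in either direction, and Cxcl16 by -0.02 (interval -0.35 to 0.31).

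**Figure D4:**
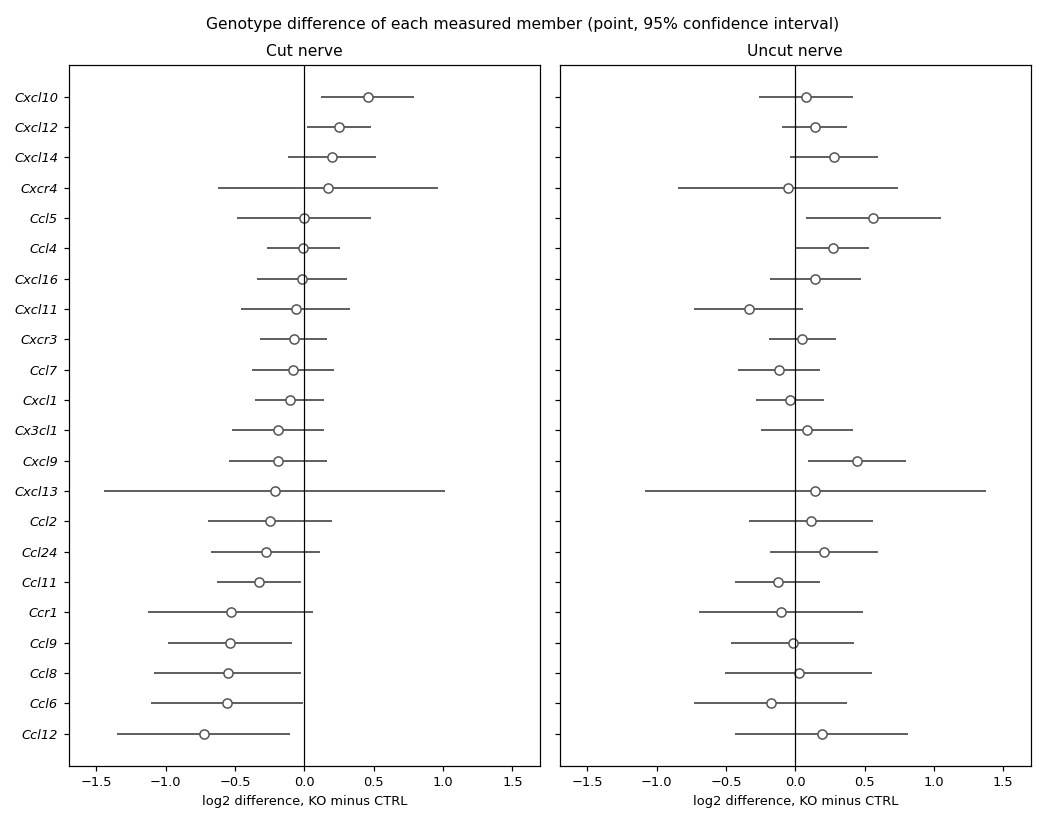
Log2 difference KO minus CTRL of the 22 genes in cut nerve (left) and in uncut nerve (right), with 95% confidence intervals that are not adjusted for the number of genes. In cut nerve the 10 CC ligands above background lie at or left of 0, from -0.73 for Ccl12, and Cxcl10 lies to the right at 0.46; none passed limma's adjusted p under 0.05.

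Markers of infiltrating cells are given beside these differences. The 17 macrophage markers had a median difference, KO minus CTRL in cut nerve, of -0.03, with none called by limma and 1 at an unadjusted p under 0.05. Of the T and natural killer cell markers, 4 of 10 were above background (Cd3e, Cd4, Klrd1 and Gzmb), with mean levels of 7.74 to 7.94 in KO cut and 8.43 to 8.47 in CTRL cut. Gzmb, a granule protease of killer cells, was lower in KO cut (log2 difference -2.25, SE 0.32, adjusted p = 0.0236). The other markers differed by -0.11 (Cd3e), 0.01 (Cd4) and -0.10 (Klrd1), and none of these passed. Their part in the differences between genotypes was not tested. Skeletal muscle genes also moved with injury: 6 of 6 rose in KO and 4 of 6 in CTRL, with mean levels of 13.32 to 13.93 in KO cut and 13.33 to 13.53 in CTRL cut, against 11.49 to 12.54 in KO uncut and 11.64 to 12.49 in CTRL uncut. The part of muscle RNA in the injury changes was not tested.

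In uncut nerve the 3 genes at an unadjusted p under 0.05 were Ccl4, Ccl5 and Cxcl9, all with higher values in KO. Ccl5 differed by 0.56 (interval 0.08 to 1.05), Cxcl9 by 0.45 (interval 0.09 to 0.80) and Ccl4 by 0.27 (interval 0.00 to 0.53), each with an adjusted p of 1.0. Both KO uncut arrays are the ones with the milk protein signal, and genotype and that signal cannot be told apart in uncut nerve. In the difference of injury responses, Ccl12 had the lowest value, -0.92 (unadjusted p = 0.0429, adjusted p = 0.776).

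The 9 genes below background were fitted without the filter, over 18194 genes. Ccl3, a ligand of Ccr1, was at 6.97 and 6.23 in KO cut against 4.66 and 4.89 in KO uncut, and at 6.46 and 6.43 in CTRL cut against 4.75 and 4.64 in CTRL uncut. Its uncut values are below the 25th percentile of the arrays, which lay between 4.95 and 5.01, and 1 cut array exceeds the medians. It was higher after injury by a log2 difference of 1.83 in KO (adjusted p = 5.0e-04) and 1.75 in CTRL (adjusted p = 5.3e-04), and values this dim give no exact fold.

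Cxcl5, a neutrophil attractant acting through Cxcr2, was at 5.22 and 5.07 in KO cut against 3.73 and 3.91 in KO uncut, and at 5.95 and 5.98 in CTRL cut against 3.90 and 3.80 in CTRL uncut. All 8 values are below the array median and the 4 uncut values below the 25th percentile, so the order of the groups is a description and no size of change is read from it. In the fit without the filter it was the only 1 of the 31 genes called between genotypes in cut nerve (adjusted p = 0.0176), where 0.808% of all genes were called. That call was lost without KO cut replicate 1 (adjusted p = 0.0774), KO cut replicate 2 (adjusted p = 0.0910), CTRL cut replicate 1 (adjusted p = 0.104) or CTRL cut replicate 2 (adjusted p = 0.107), and without the 2 milk-richer cut arrays together (adjusted p = 0.230).

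Cxcl2, a close relative of Cxcl1, was at 5.01 and 4.47 in KO cut against 3.51 and 3.84 in KO uncut, and at 4.34 and 4.16 in CTRL cut against 3.88 and 3.75 in CTRL uncut. On 7 of the 8 arrays it is under the 25th percentile, and no change is read from it. Ccr7, the receptor that guides dendritic cells and T cells to lymph nodes, had 5.38 and 5.27 in KO cut against 4.99 and 5.07 in KO uncut, and 5.41 and 5.37 in CTRL cut against 4.82 and 4.89 in CTRL uncut. All 8 values are below the array median, and no size is read from them. Ccl17 and Ccl22 (ligands of Ccr4), Ccl20 (of Ccr6), Ccl25 (of Ccr9) and the receptor Cxcr6 were below the array median on all 8 arrays and were called in no comparison. Without the filter, 15 of the 31 genes were called after injury in KO (13 higher) and 16 in CTRL (15 higher). Over all 18194 genes of that fit, 25.2% were called in KO (12.3% higher) and 27.7% in CTRL (15.6% higher).

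**Figure D5:**
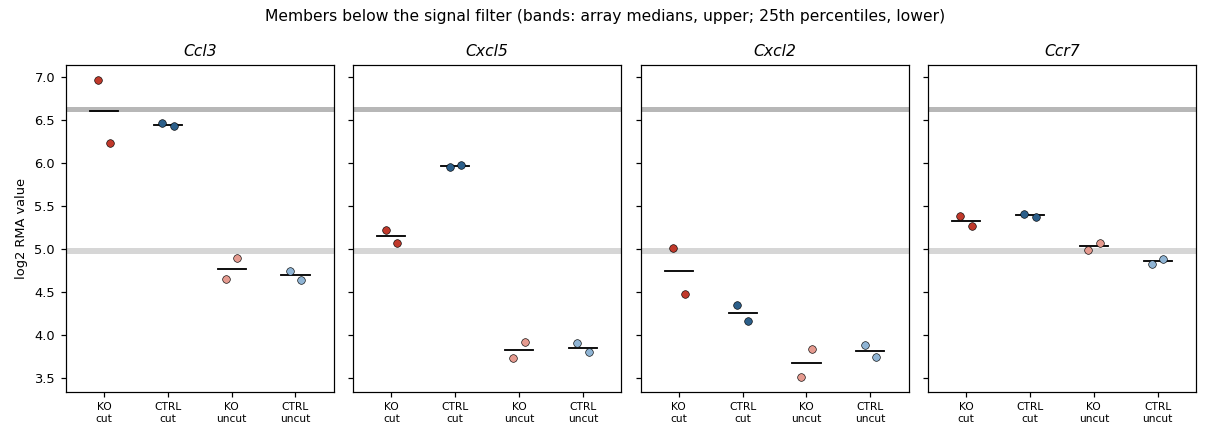
Log2 expression per array (dots; lines mark group means) of Ccl3, Cxcl5, Cxcl2 and Ccr7, with bands for the range of array medians (6.59 to 6.65) and of 25th percentiles (4.95 to 5.01). The cut arrays of Cxcl5 lie at 5.07 to 5.22 in KO and 5.95 to 5.98 in CTRL, all under the medians.

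Other genes of the chemokine system came from lists written by name. Of 16 further receptors, 4 were above background. Cx3cr1, the Cx3cl1 receptor of monocytes and macrophages, rose in KO (log2 fold change 1.03, adjusted p = 0.0312) and CTRL (1.27, adjusted p = 0.0127). Ccrl2, a non-signalling receptor relative, rose in KO (0.50, adjusted p = 0.0101) and CTRL (0.59, adjusted p = 0.00421). Ccr2 showed 1.28 in KO (adjusted p = 0.0709) and 0.84 in CTRL (adjusted p = 0.194), and neither passed. Cmklr1, the chemerin receptor, fell in CTRL (-0.47, adjusted p = 0.0383).

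Of 4 atypical receptors, which bind and clear chemokines without G protein signalling, 3 were above background and 2 fell in each genotype. Ackr1, which is found on venous endothelium, fell by a log2 fold change of -1.33 in KO (adjusted p = 5.9e-04) and -1.17 in CTRL (adjusted p = 9.0e-04). Ackr3, a scavenger of Cxcl12, fell by -0.80 in KO (adjusted p = 0.0315) and -0.82 in CTRL (adjusted p = 0.0271). Beside them, 4 of 8 endothelial markers fell in KO and 2 of 8 in CTRL. Their part in the fall of Ackr1 was not tested.

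Of 12 further ligands, 4 were above background, and Ccl27a, a chemokine best known from skin, fell in KO (-1.25, adjusted p = 0.00241) and CTRL (-1.46, adjusted p = 9.9e-04). Among 17 genes that carry receptor signals in leukocytes, 14 were above background, of which 9 rose and 1 fell in KO and 10 rose in CTRL. Pik3r5, a regulator of the phosphoinositide kinase that chemokine receptors activate, had log2 fold changes of 1.98 in KO and 1.72 in CTRL. The exchange factor Vav1 had 1.94 in KO and 1.86 in CTRL. In uncut nerve the means lay under the array medians, at 6.16 in KO and 6.25 in CTRL for Pik3r5. For Vav1 they were 5.06 and 5.08. Both genes passed the filter only through cut arrays, so the filter itself favours a rise with injury for them. Of 14 NF-kB components and targets, 11 were above background. Of these 2 fell in KO (Nfkbia, -0.61, and Tnfaip3, -0.33), and in CTRL 2 rose (Nfkb2, 0.40, and Icam1, 0.44) and Nfkbia fell (-0.60). Over all genes, 18.1% rose and 17.8% fell in KO, and 22.8% rose and 17.5% fell in CTRL. The NF-kB counts are not read as a result about that list. None of the genes of these 5 lists was called by limma between genotypes or in the difference of responses, where 3 signalling genes had an unadjusted p under 0.05 in cut nerve, 1 NF-kB gene in uncut nerve and 1 signalling gene in the difference.

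Among the protein-coding genes of the RefSeq gene table, 12 of the 32 genes lie on chromosome 11 and 7 on chromosome 5. Cxcl11, listed as a pseudogene, was not placed. On chromosome 11, Ccl2, Ccl7, Ccl11, Ccl12 and Ccl8 follow each other with 0 protein-coding genes between them. Ccl5, Ccl9, Ccl6, Ccl3 and Ccl4 form a second such run. Neighbours did not all do the same. In the first run 4 of the 5 rose in both genotypes and Ccl11 did not pass in either. In the second run Ccl9 rose in both and Ccl5 passed in neither. On chromosome 5, Cxcl9 and Cxcl10 lie with 1 protein-coding gene between them. Cxcl10 rose in both genotypes while Cxcl9 passed in CTRL alone, and the difference of the Cxcl9 responses was not called.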

How the data were processed

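Affymetrix 1-colour arrays measured RNA of 8 pools of mouse sciatic nerve, 2 for each of 4 groups taken from the sample titles. The deposited values are log2 expression values of 45101 probe sets, made by the authors with RMA and the package affy, per the submitters' processing notes, with versions not given in the sources used here. This method equalises the distribution between arrays and compresses differences of dim probe sets. The platform annotation names 1 symbol for 34958 probe sets, more than 1 for 932 and none for 9211. Only the first kind named a gene, and 34754 of them were matched by gene number to the RefSeq table with 0 symbols changed.

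Probe sets above the median of their array on at least 2 arrays were kept, and the one with the highest mean stood for its gene, leaving 12094 of 18194 genes. With R 4.3.3 and limma 3.58.1, group means were fitted over the 8 arrays together (lmFit, eBayes; 4 residual and 3.59 prior degrees of freedom), with 5 contrasts. The threshold was a Benjamini-Hochberg adjusted p below 0.05 over the genes kept, two-sided, and every adjusted p is limma's. Intervals are 95% and unadjusted. The code was tested on simulated data. The number of arrays limits the precision, and the labels do not say whether pools with the same number hold the same mice, so p-values measure the spread between these pools.

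The genes and lists were chosen with earlier results of these data known. Each of the 32 genes is accounted for. Of other lists only called genes with the highest change, up to 3 per list and contrast, are named. Ccr2, Csn2, Krt5, Krt8 and Krt18 were named after their values were seen. Promoters came from RefSeq and matched 22 of the 32 genes; both motifs were likewise chosen with results known. The alternatives changed the filter (none, or the 75th percentile), the unit (mean of a gene's probe sets, or single probe sets), the scaling (median centring, quantiles again), the variance (array weights, or trended and robust), the size needed (2-fold), and the arrays (a replicate block, the compared arrays alone, or each array omitted). After the data were seen, a fit that omits the 2 milk-richer cut arrays was added.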

Additional observations from a re-analysis of the deposited data

Results flagged for a closer look

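Cxcl9, an interferon-induced ligand of Cxcr3, had its arrays in opposite order in KO and CTRL nerves. Both KO cut arrays were below both KO uncut arrays, and both CTRL cut arrays were above both CTRL uncut arrays. The difference of the responses, KO minus CTRL, was -0.64 on the log2 scale and did not pass limma's test (adjusted p = 0.563). The KO change did not pass either (-0.19, adjusted p = 0.373), and the CTRL call was lost with any 1 of 7 arrays left out. The log2 difference KO minus CTRL was -0.19 in cut nerve and 0.45 in uncut nerve. The milk protein gene Csn2 had its arrays in the same opposite order. It was at 3.69 and 9.15 in KO cut against 13.01 and 10.33 in KO uncut. In CTRL it was at 11.47 and 7.03 in cut nerve against 3.50 and 4.14 in uncut nerve. The part of this signal in the Cxcl9 values was not tested.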

How the results depend on the processing

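Among the calls after injury of the 22 genes, none changed sign under an alternative run. Cxcl12, not called, was called lower with the mean of its probe sets. Among the 22 genes, the count called after injury in KO (12) became 6 of 11 with the filter at the 75th percentile and 7 with at least 2-fold change, and in CTRL the count (15) became 7 of 11 with that filter. Between genotypes in cut nerve it was 0, and 1 (Cxcl5) with no filter. Over all genes, the injury counts (4348 in KO and 4879 in CTRL) were 7240 and 8441 with probe sets as units and 1370 and 1511 with at least 2-fold change, and KO had 2765 without the 2 milk-richer cut arrays. Genotype in cut nerve (132) gave 67 with at least 2-fold change, 31 with only the arrays compared and 23 without those arrays. Genotype in uncut nerve (0 with limma, with 322 genes at an unadjusted p under 0.05) gave 1 with the mean of probe sets, 1 with probe sets as units, 9 with only the arrays compared and 10 without those arrays. The difference of responses (20) gave 33 with no filter, 11 at the 75th percentile, 33 with the mean of probe sets and 31 with a trended and robust variance. Leaving out 1 array gave 9 to 12 of the 22 genes after injury in KO (lowest without KO uncut replicate 2) and 11 to 14 in CTRL (lowest without CTRL uncut replicate 1), with 0 to 0 between genotypes. Over all genes it gave 2744 to 4248 and 3394 to 4719 after injury in KO and CTRL, 12 to 112 for genotype in cut nerve (lowest without CTRL cut replicate 1), 0 to 2 in uncut nerve and 0 to 37 for the difference of responses; the cause was not tested. With the replicate number as a block, the counts of the 22 genes were 12 in KO, 14 in CTRL (Cxcl9 lost, adjusted p = 0.0519) and 0 between genotypes, and all-gene counts were 4980, 5544, 174, 4 (uncut nerve) and 25. Deviations of pools with the same number correlated at 0.02 to 0.34, not over 0.1 in every pair, and the labels give no shared source, so the block is given as a check only. Genes near the array median, such as Ccl4 and Ccl12, are limited by signal over background.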
